A study of Rattus norvegicus with 8 samples.

Results

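Itgae and Rnase3 are genes of immune cells among the few transcripts that could be named on these arrays, and each was read by 1 probe. They are 2 of the 34 genes named here, on an array table of 26857 probes, of which 16114 passed an intensity filter; both passed it. Expression was measured in inguinal white adipose tissue, a subcutaneous fat depot of the groin, of male rats of the inbred Fischer 344 strain. The rats ate a methionine-restricted diet (MR, 0.172% DL-methionine) or a control diet of purified amino acids (CON, 0.86% DL-methionine) for 20 months, starting at 32 days of age after a common rodent chow. Each diet had 4 arrays made with pooled RNA. The sources used here do not say how many rats were pooled. The tests therefore compare arrays, and part or all of their spread may be technical.

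Itgae encodes integrin alpha E, also called CD103, the chain that pairs with integrin beta 7 and binds E-cadherin on epithelial cells. It marks lymphocytes that stay in a tissue and some dendritic cells. Rnase3 encodes a ribonuclease of the eosinophil granule; its human counterpart is the eosinophil cationic protein, which is toxic to parasites. Fat holds both resident lymphocytes and eosinophils, and in mice the eosinophils of fat are known as a source of interleukin 4, a signal that acts on macrophages. In tissue RNA, fewer cells of a type and less RNA per cell cannot be told apart.

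Itgae was matched to a gene at chr10:58203331-58262606 and Rnase3 to a gene at chr15:26985399-26986269 in the RefSeq annotation of the rat assembly GRCr8, through the accession each probe carries. Where each probe lies in its transcript is not stated in those sources. Rnase3 stands among relatives: within 100 kb the annotation holds 5 other protein-coding genes named as ribonucleases or eosinophil-associated ribonucleases. The 250 bases before its annotated start were 92.2% identical to those of Rnase2, another eosinophil-associated ribonuclease, over 244 aligned columns. The figures were 93.4% for Ear1l1 over 242 columns and 95.4% for Ear1 over 194. The neighbour LOC100361866, which has no gene name, had 95.6% over 250, while Rnase17 and Rnase1l2 aligned over 27 and 14 columns alone. None of these relatives has a probe named here, but only 35 of the 26857 probes could be named. The aligned bases lie before the genes, and no probe or transcript sequences were compared. Which family member the Rnase3 signal reads is therefore uncertain and was not tested. The upstream bases below are from RefSeq, 5′ to 3′ on the gene's own strand, and show the 2 genes and one close relative of Rnase3. Itgae lies on the plus strand (chr10:58203118-58203367), Rnase3 on the minus strand (chr15:26986270-26986519) and Rnase2 on the minus strand (chr15:26923935-26924184). The Itgae window ends past the gene start given above, so its last bases lie inside the gene as annotated. The Rnase3 window lies wholly outside its gene. Capitals in Itgae and Rnase3 mark motif matches, and in Rnase2 the 25 bases that are unaligned or not identical to Rnase3.
Itgae: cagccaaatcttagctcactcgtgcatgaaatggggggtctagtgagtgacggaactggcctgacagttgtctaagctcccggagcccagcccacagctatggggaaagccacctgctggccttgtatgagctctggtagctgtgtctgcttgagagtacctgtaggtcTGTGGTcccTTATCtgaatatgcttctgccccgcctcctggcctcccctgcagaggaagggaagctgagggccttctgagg
Rnase3: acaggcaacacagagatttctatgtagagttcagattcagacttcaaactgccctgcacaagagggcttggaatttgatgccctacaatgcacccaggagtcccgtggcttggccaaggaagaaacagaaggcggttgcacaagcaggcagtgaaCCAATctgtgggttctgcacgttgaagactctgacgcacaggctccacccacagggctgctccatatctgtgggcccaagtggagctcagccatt
Rnase2: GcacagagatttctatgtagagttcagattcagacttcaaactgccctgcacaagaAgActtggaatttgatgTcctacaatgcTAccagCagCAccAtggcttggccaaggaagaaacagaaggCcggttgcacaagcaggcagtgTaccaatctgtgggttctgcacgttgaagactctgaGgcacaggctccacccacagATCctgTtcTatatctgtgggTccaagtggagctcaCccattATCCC

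The motifs searched on both strands were TGTGGT (the RUNX motif), GATAA (GATA factors), CCAAT (the CCAAT box) and TATAAA (the TATA box). They were chosen with the sequences in view. Itgae held 1 match to TGTGGT, a motif in 14.5% of 33469 upstream windows of the same length, and 1 to GATAA, in 23.5% of them. Rnase3 held 1 match to CCAAT, in 34% of the windows. TATAAA, found in 12.9% of the windows, had 0 matches in either gene. These matches describe the letters of the windows and say nothing of binding.

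Signals are given on a log2 scale as normalized by the authors, with a median of 9.37 on every array. Some arrays stood apart from their diet. Across the tested probes CON replicate 2 was most like MR replicate 1 (Pearson's r = 0.945, across probes, which are not independent replicates). CON replicate 1 alone lay over 2 log2 units from all other arrays in 373 tested probes, against 10 to 87 for the others. A further 46 probes were bright on MR replicate 2 and CON replicates 1 and 3, by more than 2 log2 units over any other array. The 14 marker lists of fat and immune cells held 142 gene names, and 6 genes among them had a named probe. The eosinophil list (19 names, among them Ear11, a synonym of Rnase3) had Rnase3 alone. The resident lymphocyte list (24 names) had Itgae alone, so neither cell type could be checked against a second marker. Of 13 adipocyte markers only the transcription factor Cebpb had a named probe; its log2 signal was 16.27 ± 0.24 in MR and 16.42 ± 0.36 in CON (SD, n = 4).

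Itgae was higher on most MR arrays, without passing the test over all probes. Its log2 signal was 12.23, 12.40, 12.07 and 11.73 on MR replicates 1, 2, 3 and 4. On CON replicates 1, 2, 3 and 4 it was 11.56, 11.75, 11.59 and 10.35. MR replicates 1, 2 and 3 lay above every CON array, whereas MR replicate 4 lay just under CON replicate 2. The diets therefore overlapped through a single pair of arrays, and 15 of 16 pairs had the MR array above the CON array. Among tested probes 10.1% had at least 15 such pairs, and in 6.04% every MR array exceeded every CON array.

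The mean Itgae level was 12.11 ± 0.28 in MR and 11.31 ± 0.65 in CON (SD, n = 4 each). The MR minus CON difference was 0.79 on the log2 scale (SE 0.34), or 1.73-fold, with a 95% confidence interval of 0.03 to 1.55. It did not pass limma's test (adjusted p = 0.194); at an adjusted p under 0.05, 2.14% of tested probes passed, 0.801% higher and 1.34% lower in MR. The unadjusted limma p was 0.0424, but 23.9% of all tested probes had one under 0.05. An exact two-sided permutation test of Itgae alone over the 70 assignments of arrays to diets gave p = 0.0571, where the smallest possible p is 0.0286.

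Part of the size of the Itgae difference rested on CON replicate 4. Without that array CON averaged 11.63 ± 0.10 (SD, n = 3), and the difference was 0.47, with a limma interval of -0.09 to 1.03 (adjusted p = 0.329). Without CON replicate 2, whose most similar array across the tested probes was MR replicate 1, the difference was 0.94 (limma adjusted p = 0.139). The remaining CON arrays all lay below every MR array. Itgae was higher in MR whichever of the 8 arrays was left out, but this sign follows from the levels above and adds no support of its own. The limma interval also included 0 without MR replicate 1 (-0.12 to 1.63), 2 (-0.17 to 1.57) or 3 (-0.07 to 1.68). It lay above 0 without CON replicate 1, 2 or 3 or MR replicate 4.

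**Figure D1:**
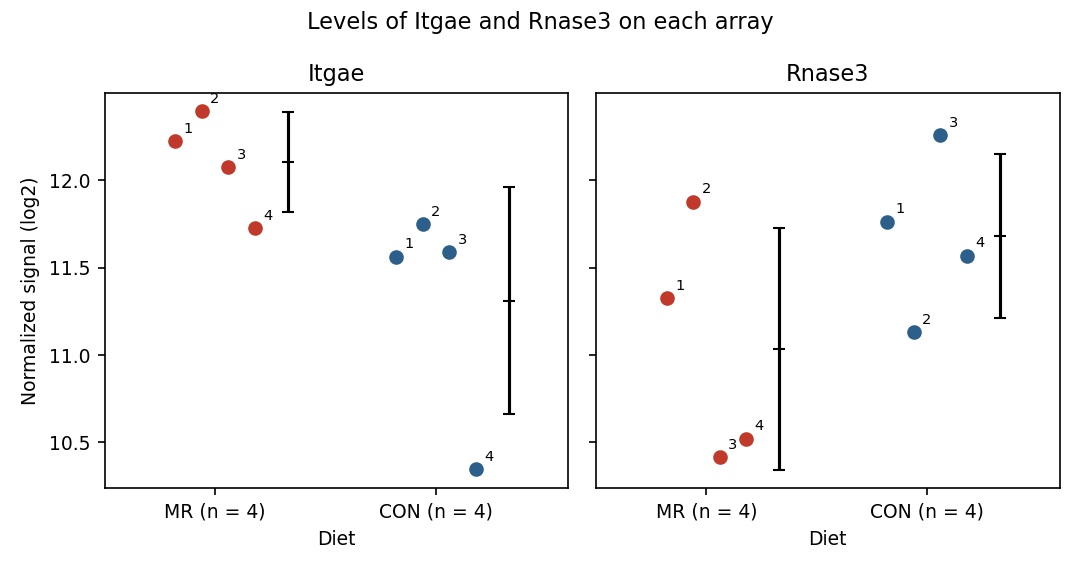
Normalized log2 signal of Itgae (left) and Rnase3 (right) on each array, with MR left of CON and replicate numbers beside the points; black bars are the mean ± SD of 4 arrays. For Itgae, 3 MR arrays lie above every CON array and CON replicate 4 lies apart at 10.35, while Rnase3 overlaps between the diets, with MR replicates 3 and 4 lowest.

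Rnase3 had its lowest levels on MR arrays, but the diets overlapped widely. Its log2 signal was 11.33, 11.88, 10.42 and 10.52 on MR replicates 1, 2, 3 and 4. On CON replicates 1, 2, 3 and 4 it was 11.76, 11.13, 12.26 and 11.57. MR replicates 3 and 4 lay below every CON array, while MR replicate 2 was second only to CON replicate 3 among all 8 arrays. The MR array was above the CON array in 4 of 16 pairs; 33.1% of tested probes had 4 such pairs or fewer, and in 8.74% every MR array lay below every CON array.

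The mean Rnase3 level was 11.04 ± 0.69 in MR and 11.68 ± 0.47 in CON (SD, n = 4 each). The MR minus CON difference was -0.65 (SE 0.39), an MR to CON ratio of 0.639, with a 95% confidence interval of -1.51 to 0.22 (limma adjusted p = 0.336). That interval runs from a ratio of 0.352 to one of 1.16 and so includes no difference. The exact two-sided permutation test of Rnase3 alone gave p = 0.2. Leaving out MR replicate 2 gave a difference of -0.93 (limma adjusted p = 0.215), and leaving out MR replicate 3 one of -0.44 (adjusted p = 0.570). Without CON replicate 2, the CON array with the lowest Rnase3 level, it was -0.83 (limma adjusted p = 0.224).

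**Figure D2:**
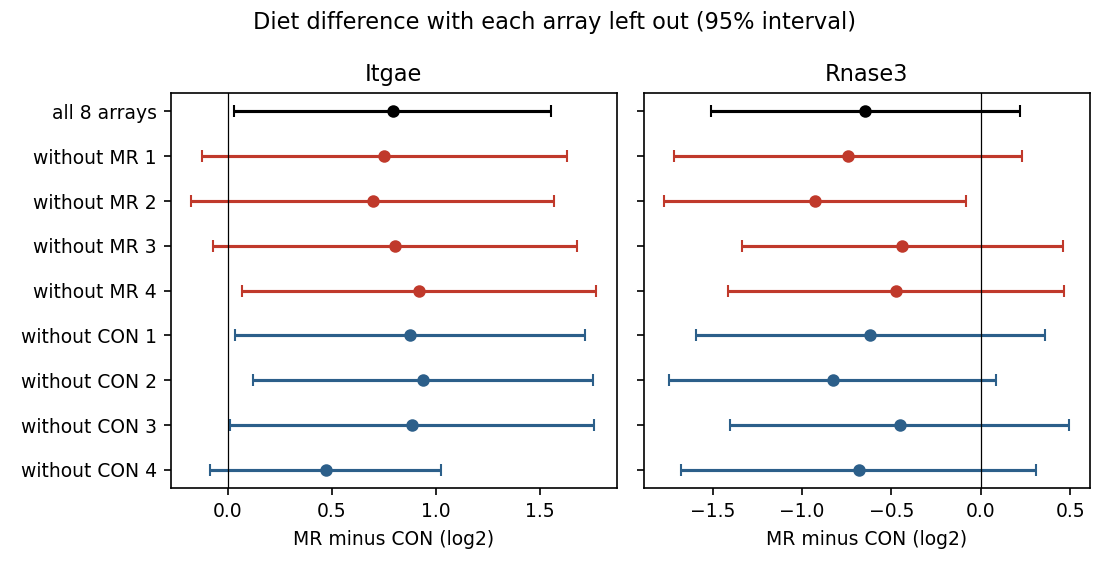
MR minus CON difference in log2 signal for Itgae (left) and Rnase3 (right) with all 8 arrays (top) and with each array left out; points are limma estimates and bars 95% confidence intervals. The Itgae estimates stay above 0, lowest at 0.47 without CON replicate 4, and the Rnase3 estimates stay below 0, between -0.93 and -0.44. The Itgae bars include 0 without CON replicate 4 or MR replicate 1, 2 or 3. The Rnase3 bars include 0 in every fit except that without MR replicate 2.

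Neither difference was large for these arrays. Among tested probes 29.5% differed between the diets by more than Itgae and 38.8% by more than Rnase3, in either direction. Of the 1000 probes nearest to each in mean level, 28% differed by more than Itgae and 40% by more than Rnase3. In the order of limma's p-values Itgae stood at place 3515 and Rnase3 at place 6103 of 16114. The median difference of the tested probes was -0.059, and 46.7% of them were higher in MR.

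**Figure D3:**
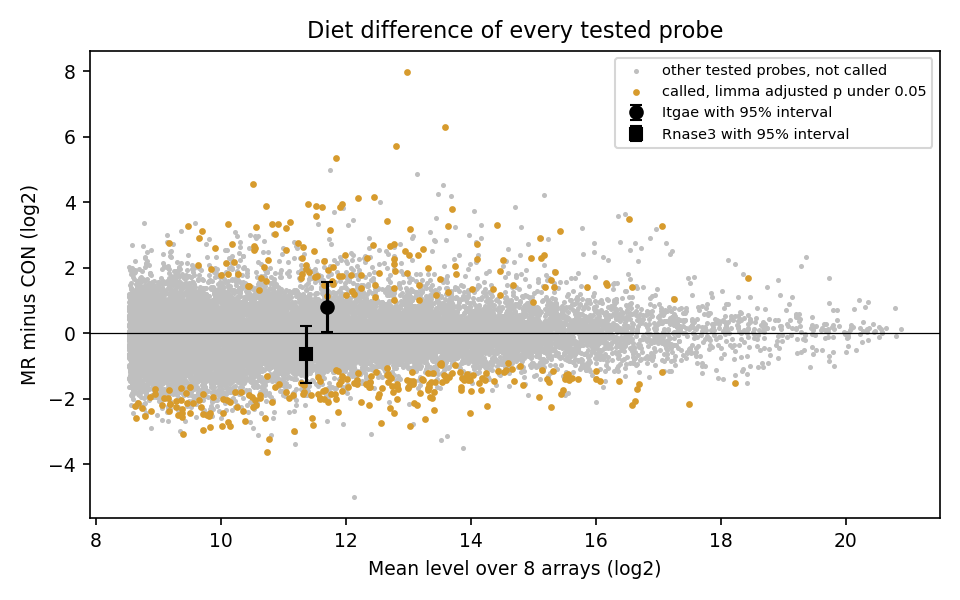
MR minus CON difference (log2) against the mean level over 8 arrays (log2) for the 16114 tested probes; called probes are in orange and Itgae and Rnase3 in black with their 95% confidence intervals. Both genes lie in the body of uncalled probes, Itgae at 0.79 and Rnase3 at -0.65.

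Both probes were of medium to high brightness. Averaged over the arrays, Itgae stood at 11.71 (rank 7196 of 26857 from the brightest, above 73.2% of probes) and Rnase3 at 11.36 (rank 7942, above 70.4%). Probes differ in how strongly they bind their target, so these ranks order signals and not amounts of RNA. On single arrays Itgae exceeded 72.7% to 78.1% of probes in MR and 60.5% to 73.0% in CON. Rnase3 exceeded 61.2% to 74.0% of probes in MR and 67.7% to 77.0% in CON.

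Spread within the diets was somewhat above that of probes of like brightness. The residual SD of Itgae was 0.50, larger than that of 61.4% of the 1000 nearest probes, whose median was 0.43. For Rnase3 it was 0.59, larger than that of 69.0% of its 1000 nearest probes, with a median of 0.47. The wider diet was CON for Itgae (SD 0.28 in MR and 0.65 in CON) and MR for Rnase3 (SD 0.69 in MR and 0.47 in CON). For Itgae this order rested on CON replicate 4. Without that array the CON SD was 0.10 (n = 3), below that of MR. The residual SD of Itgae includes the same array. The difference in spread between the diets was not tested.

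The 2 genes were set side by side within each array to compare their directions. Itgae minus Rnase3 was 0.90, 0.52, 1.66 and 1.20 log2 units on MR replicates 1 to 4. On CON replicates 1 to 4 it was -0.20, 0.62, -0.67 and -1.22. The value was above 0 on all 4 MR arrays and on CON replicate 2 alone among the CON arrays. It averaged 1.07 ± 0.48 in MR and -0.37 ± 0.78 in CON (SD, n = 4 each), a difference of 1.44. This is the sum of the sizes of both differences above and adds no support of its own. The diets overlapped in 1 of 16 pairs, that of CON replicate 2 with MR replicate 2. With 1 array left out the difference was 1.15 to 1.77, lowest without CON replicate 4 and highest without CON replicate 2. No p-value is given for it, because the pair was put together with the signs of both differences known. The sign of the value within an array also depends on how brightly each probe reads, and only its difference between arrays bears on the diets.

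**Figure D4:**
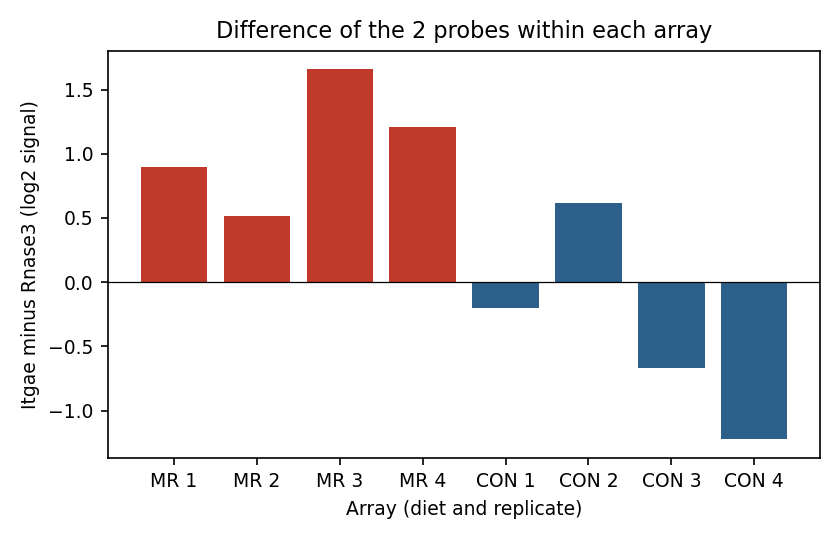
Itgae minus Rnase3 in log2 signal on each array, MR arrays left (red) and CON arrays right (blue). All MR bars are above 0, from 0.52 to 1.66, and CON replicate 2 at 0.62 is the CON bar above 0.

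The genes did not order the arrays as mirror images of each other. MR replicate 2 was the highest MR array for both, and CON replicate 2 was the CON array nearest to the MR mean for both. Over the 8 arrays the Itgae and Rnase3 levels had Pearson's r = -0.169, and after the diet means were taken out r = 0.305, given as descriptions. The arrays share their normalization, and those of a diet share its treatment.

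Among the other 11 named, tested probes, Kcnip2 (a potassium channel interacting protein, r = 0.586), Lypd4 (0.491) and Rtn3 (a reticulon of the endoplasmic reticulum, 0.479) were most like Itgae over the 8 arrays. Farthest from it were Atf4 (a regulator of the response to amino acid shortage, -0.636), Hbb-b1 (a haemoglobin beta chain, -0.308) and Ramp2 (-0.182). Most like Rnase3 were Ramp2 (a receptor subunit found in endothelium, 0.811), Atf4 (0.620) and Hbb-b1 (0.265), and farthest from it Arhgef1 (-0.544), Six3 (-0.421) and Lypd4 (-0.347). The tested Kcnip2 probe was at 12.85 ± 0.56 in MR and 11.61 ± 0.67 in CON (SD, n = 4). Another Kcnip2 probe, below the intensity filter, was at 8.47 ± 0.29 in MR and 8.25 ± 0.35 in CON (SD, n = 4). Lypd4 lay near the filter level of 8.53, with means of 8.95 in MR and 8.41 in CON. Over all tested probes the closest to Itgae was the unnamed transcript rCG48681 (r = 0.985) and the closest to Rnase3 the unnamed rCG51195 (r = 0.969). These highest values are picked from 16113 probes on 8 arrays. In all, 212 probes had r of at least 0.9 with Itgae (1.32%) and 41 with Rnase3 (0.254%), while 262 and 43 had r of -0.9 or below.

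Taking out the diet means changed several of these values, some in sign. Itgae then had r = 0.153 with Kcnip2, 0.300 with Lypd4 and -0.24 with Rtn3, and 0.524 with Ramp2, 0.273 with Hbb-b1 and -0.378 with Atf4. Rnase3 had r = 0.724 with Ramp2, 0.437 with Atf4 and -0.154 with Hbb-b1, and -0.483 with Arhgef1, -0.104 with Six3 and -0.154 with Lypd4. These genes were chosen by their r before the diet means were taken out. Afterwards the named, tested probe with the highest r with Itgae was Cebpb (0.567). For Rnase3, Kcnip2 (0.623) came next after Ramp2, and Cebpb was lowest (-0.542). Ramp2 was at 14.84, 15.01, 14.67 and 13.95 on MR replicates 1 to 4. On CON replicates 1 to 4 it was at 16.17, 14.92, 16.09 and 15.05. Its MR minus CON difference was -0.94 (limma adjusted p = 0.147). The red blood cell gene Hbb-b1 was at 19.38 ± 0.15 in MR and 20.08 ± 0.60 in CON (SD, n = 4), a difference of -0.70 (limma adjusted p = 0.231). The stroma gene Mmp2, a matrix protease, was below the intensity filter, at 8.43 ± 1.20 in MR and 8.60 ± 1.40 in CON (SD, n = 4). The part of vessel or blood content in the Rnase3 difference was not tested.

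The 3 arrays with the highest Rnase3 levels, CON replicates 1 and 3 and MR replicate 2, were also those on which the set of 46 unnamed probes was bright. The mean level of that set was 8.73, 13.38, 8.54 and 9.14 on MR replicates 1 to 4. On CON replicates 1 to 4 it was 14.68, 9.30, 14.61 and 8.77. For Rnase3 the gap between the lowest of these 3 arrays and the highest of the other 5 was 0.20 log2 units. Of the tested probes, 1.97% had the same 3 arrays on top. With the mean of the 46 probes as a covariate the Rnase3 difference was -0.35 (limma adjusted p = 0.576), and that of Itgae 0.97 (adjusted p = 0.174). The 46 probes were picked from these same arrays, by the arrays on which Rnase3 was also highest. The fit with them is therefore a description and cannot decide the part of this array set. That part in the Rnase3 difference was not tested.

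**Figure D5:**
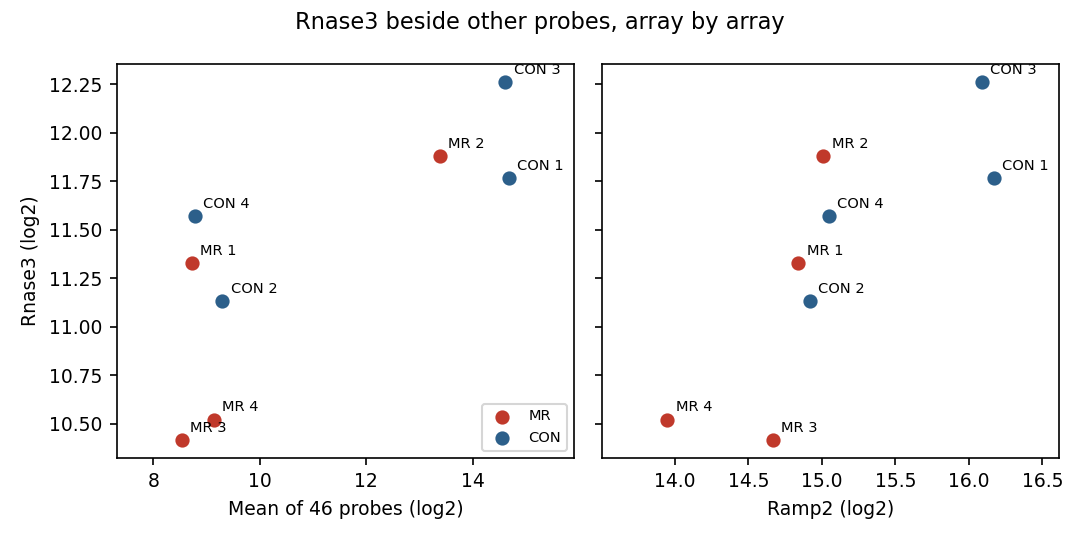
Rnase3 log2 signal on each array against the mean log2 signal of the 46 probes bright on 3 arrays (left) and against Ramp2 (right), with MR in red and CON in blue. CON replicates 1 and 3 and MR replicate 2 lie at the right of the left panel and have the 3 highest Rnase3 levels, at 11.76, 12.26 and 11.88.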

How the data were processed

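Total RNA of 8 tissue samples was labelled with digoxigenin and read on single-colour arrays, per the labels' protocols. The authors deposited 1 table of normalized signals, read here as log2 values: the base is not stated, and was assumed from a range of 4.90 to 21.29. All columns have nearly one distribution, as after quantile normalization, with sorted values within 0.00526 of their mean. The labels and headers used here do not say how background was corrected. The scanner table's 60 columns, for 12 arrays whose codes match no sample label, were not used, so detection and signal over background were not assessed. Only its identifiers were read; through GRCr8's RefSeq table they named 35 probes of 34 genes. For arrays, their number limits the precision.

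Probes with a mean above the 40th percentile (8.53) were tested by limma 3.58.1 in R 4.3.3 (lmFit, eBayes with an intensity trend, no covariate, two-sided), with Benjamini-Hochberg adjustment over 16114 probes and a threshold of 0.05. The fit was also run on simulated data with independent noise, which does not copy arrays that stand apart from their diet. That run cannot vouch for the fit on arrays such as these. Exact permutation tests ran over all assignments of arrays. Groups and replicate numbers came from sample titles. Genes named beside Itgae and Rnase3 were the 3 most and 3 least correlated named, tested probes, the closest probe of any kind, and marker list members; Cd244l1, outside that rule, was added after its values were seen. The members, marker lists, array sets and alternatives were chosen with earlier results of these data known. Upstream windows came from RefSeq and were aligned locally with Biopython 1.88.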

Additional observations from a re-analysis of the deposited data

Results flagged for a closer look

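Of 6 groups of 4 arrays examined (each gene and their within-array difference, in each diet), 1 held an array far from the rest. For Itgae in CON the gap of CON replicate 4 (10.35) to its nearest neighbour was 0.867 of the group's range, with the other 3 arrays at 11.56 to 11.75. Chance sets apart about 1 in 20 groups by this measure. For Rnase3 the same array lay between the other CON arrays, at 11.57.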

How the results depend on the processing

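Of 20 alternatives, 7 could not move the estimates. Under the other 13 Itgae was higher in MR by 0.47 to 0.97; it passed the adjusted threshold in 0 of 18 limma fits (adjusted p 0.139 to 0.338; 11 had an unadjusted p under 0.05). Rnase3 was lower under the same 13, at -0.93 to -0.35, and passed in 0 of 18 (adjusted p 0.193 to 0.576; 1 had an unadjusted p under 0.05). The value of -0.35 came with the 46 probes as a covariate, and 0.47 for Itgae without CON replicate 4; the cause was not tested. The within-array difference stayed between 1.15 and 1.77 in 10 alternatives. The count of called probes, 345, was 147 without the intensity filter, 103 without a trend, 1429 with array weights, 20 with that covariate and 16 with a block for the set of MR replicate 1 and CON replicates 3 and 4. It was 19, 1335, 2 and 25 without CON replicates 1 to 4 in turn and 523, 0, 10 and 2 without MR replicates 1 to 4; the limma fit with 0 had 3238 probes at an unadjusted p under 0.05. With replicate number as a block, limma called 0 probes, with 3465 at an unadjusted p under 0.05. Arrays of the same number had deviations from their diet means that correlated at -0.0850, -0.254, -0.0803 and 0.104, so numbers were not treated as pairs; under the replicate block Itgae had an adjusted p of 0.185 and Rnase3 of 0.420. The cause of these shifts was not tested.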

Other observations

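Another immune gene with a named probe, Cd244l1, a receptor gene of the family known from natural killer cells, was dim and below the intensity filter. It was singled out after its values were seen. Its log2 signal was 7.85, 7.08, 6.93 and 9.01 on MR replicates 1 to 4, and 8.22, 8.13, 8.19 and 7.74 on CON replicates 1 to 4. The diets overlapped, and MR replicate 4 was the highest of all 8 arrays.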
